A study of Mus musculus with 6 samples.

Results

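Solute carrier (Slc) genes encode most of the membrane proteins that move small molecules into, out of and within a cell. The members described here are all genes whose symbol begins with Slc and a digit and that had at least 1 UMI (unique molecular identifier, 1 captured RNA molecule) in at least 1% of the colonic CD4 T cells assigned to a replicate. The glucose and lactate carriers Slc2a1, Slc2a3, Slc16a1 and Slc16a3 were left out. Of 232 such symbols in the table of 15473 genes, 155 are members, 73 fell under the threshold and 4 were left out by name. Detection in the cells of both gates together chose the members, so their detection is a description only. Just inside the threshold lay Slc19a2 (1.05% of cells), Slc5a6 (1.18%) and Slc26a6 (1.20%), and just outside it Slc25a15 (0.779%), Slc22a17 (0.901%) and Slc44a1 (0.959%).

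CD4 T cells were sorted from the lamina propria of the mouse colon into a tdTomato+GFP+ and a tdTomato-GFP- gate. All mice were Foxp3{delta}EGFPiCre/WT and also carried R26lsl-tdTomato/wt: EGFP and iCre sit in 1 of the Foxp3 alleles, so Cre comes from the Foxp3 locus, and tdTomato is a reporter that Cre switches on. Foxp3 itself was at 144.1, 118.1 and 114.97 CPM in tdTomato+GFP+ cells, against 174.03, 193.97 and 168.4 CPM in tdTomato-GFP- cells. Both gates therefore come from mice of the same genotype, with 3 hashed biological replicates a gate, and animal age is not given in the sources used here. The 3 replicates of a gate ran on 1 10x lane, so an effect of the lane cannot be told apart from one of the gate. The tdTomato+GFP+ gate held 1747, 4610 and 2408 cells and the tdTomato-GFP- gate 5159, 3114 and 1836 cells, with 7424984 to 23289046 UMIs a replicate. All 5 T cell markers were detected in each comparison. Clusters are the authors' 16 deposited ones. Clusters 1, 2, 3, 12 and 13, led by Il17a, Il17f or Ccl20, are called Th17-like, cluster 0 Th2-like, cluster 7 Tfh-like and cluster 10 cycling. Cluster 5 had all 8 regulatory T cell markers raised but also all 6 Th2 markers, and keeps its number. Th17-like cells numbered 5665 in the tdTomato+GFP+ gate and 1123 in the tdTomato-GFP- gate, so differences over all cells carry this difference in make-up. Across a pool of cells, fewer cells of a type and less RNA per cell cannot be told apart.

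Carriers are sorted into families by sequence. Slc7, Slc38, Slc1 and Slc3 members move amino acids, some as pairs of a heavy and a light chain. Slc25 members sit mostly in the inner mitochondrial membrane and exchange nucleotides, phosphate, organic acids and cofactors with the cytosol. Slc39 and Slc30 proteins move zinc and other metals in opposite directions, and Slc35 proteins mostly bring activated sugars into the Golgi and endoplasmic reticulum. T cells depend on several of them after activation, when demand for amino acids, nucleosides and metals grows.

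Roles were assigned by family name, so a role can hold members with another substrate or site. The purine base carrier Slc43a3 counts with the amino acid carriers, and the peroxisomal Slc25a17 with the mitochondrial ones. Mitochondrial carriers made up the largest group, with 34 members and 35.2% of the members' UMIs, followed by 20 amino acid and peptide carriers with 17.7%. Ion exchangers and metal carriers had 21 members each and 7.38% and 7.75% of the UMIs. The 20 Slc35 members held 8.23%. Levels in CPM (UMIs of a gene scaled to the library's total without hashtags) count captured molecules and are not set per transcript length. The 10 members with the most UMIs held 43.7% of the total. These were Slc25a3 (the mitochondrial phosphate carrier), Slc25a5 (an ADP/ATP exchanger), Slc9a3r1 (a scaffold protein named for a carrier it binds), Slc1a5 (a neutral amino acid carrier that takes up glutamine), Slc3a2 (the heavy chain of several amino acid exchangers), Slc50a1, Slc38a1, Slc25a11, Slc25a39 and Slc38a2. Slc9a3r1, Slc4a1ap, Slc7a6os and Slc36a3os meet the naming rule but are not carriers.

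Over all cells, the summed level of the members was 5036, 4953 and 4853 CPM in the tdTomato+GFP+ replicates, against 4846, 4760 and 4676 CPM in the tdTomato-GFP- replicates. Single members differed in both directions. In edgeR's quasi-likelihood test on summed UMIs, adjusted over all genes, 21 of 155 members were higher and 20 lower in tdTomato+GFP+ cells at an adjusted p below 0.05. Among all 11933 genes tested, 13% were higher and 13.4% lower, so the members' shares of 13.5% and 12.9% lie near those of all genes. The median log2 fold change was 0.03 over members and 0.00 over all genes. Of the 41 calls, 24 kept an adjusted p below 0.05 when any 1 replicate was left out. The other 17 lost it without at least 1 replicate, and 16 of them without tdTomato+GFP+ replicate 2, the deepest of that gate, with adjusted p of 0.0526 to 0.136. Leaving out tdTomato-GFP- replicate 2 lost 14 calls (adjusted p of 0.0526 to 0.176).

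The 3 largest falls over all cells were in Slc14a1, Slc45a4 and Slc9a9. Slc14a1 (urea transporter B) had 0.943, 1.44 and 1.30 CPM in tdTomato+GFP+ cells, against 6.83, 5.29 and 4.79 CPM in tdTomato-GFP- cells. It fell by 2.17 on the log2 scale (SE 0.24, adjusted p = 0.000453), at low levels in both gates. Slc45a4, a proton-coupled carrier, had 5.25, 7.05 and 7.02 CPM in tdTomato+GFP+ cells, against 13.57, 13.96 and 13.88 CPM in tdTomato-GFP- cells (log2 fold change of -1.09 with an SE of 0.13, adjusted p = 0.000633). Slc9a9, an endosomal sodium/proton exchanger, had 32.9, 47.6 and 42.5 CPM in tdTomato+GFP+ cells, against 84.2, 72.8 and 77.1 CPM in tdTomato-GFP- cells (log2 fold change of -0.93 with an SE of 0.13, adjusted p = 0.00287). For all 3 genes the replicates of the gates did not overlap. Their lower calls held without any single replicate.

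Rises over all cells included carriers of heme, nucleosides and sugar phosphate. Slc48a1, which moves heme out of lysosomes, had 71.2, 68.2 and 59.4 CPM in tdTomato+GFP+ cells, against 41.05, 37.8 and 36.2 CPM in tdTomato-GFP- cells (log2 fold change of 0.77 with an SE of 0.08, adjusted p = 0.000312). Slc29a1, the equilibrative nucleoside transporter, had 114, 103 and 88.4 CPM against 72.5, 61.2 and 55.6 CPM (log2 fold change of 0.68 with an SE of 0.12, adjusted p = 0.00568). Slc22a15, an organic ion carrier, had 43.5, 43.1 and 30.3 CPM in tdTomato+GFP+ cells, against 23.0, 18.4 and 17.5 CPM in tdTomato-GFP- cells (log2 fold change of 0.97 with an SE of 0.16, adjusted p = 0.00534). In each of these genes every tdTomato+GFP+ replicate lay above every tdTomato-GFP- replicate, and the calls held without any single replicate. Slc37a2, which exchanges sugar phosphate for phosphate in the endoplasmic reticulum, had the largest rise, with 20.3, 10.6 and 8.63 CPM against 3.82, 2.20 and 2.27 CPM (log2 fold change of 2.15 with an SE of 0.39, adjusted p = 0.00961). The summed level of 6 B and plasma cell markers was 1655, 658.5 and 141.7 CPM in the tdTomato+GFP+ replicates and 443.9, 740 and 1273 CPM in the tdTomato-GFP- replicates, with no marker at 0, and its part in this rise was not tested. In the Th17-like clusters, where these markers summed to 22.3 to 40.9 CPM and 26.8 to 93.2 CPM, Slc37a2 was also higher, as given further on.

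**Figure D1:**
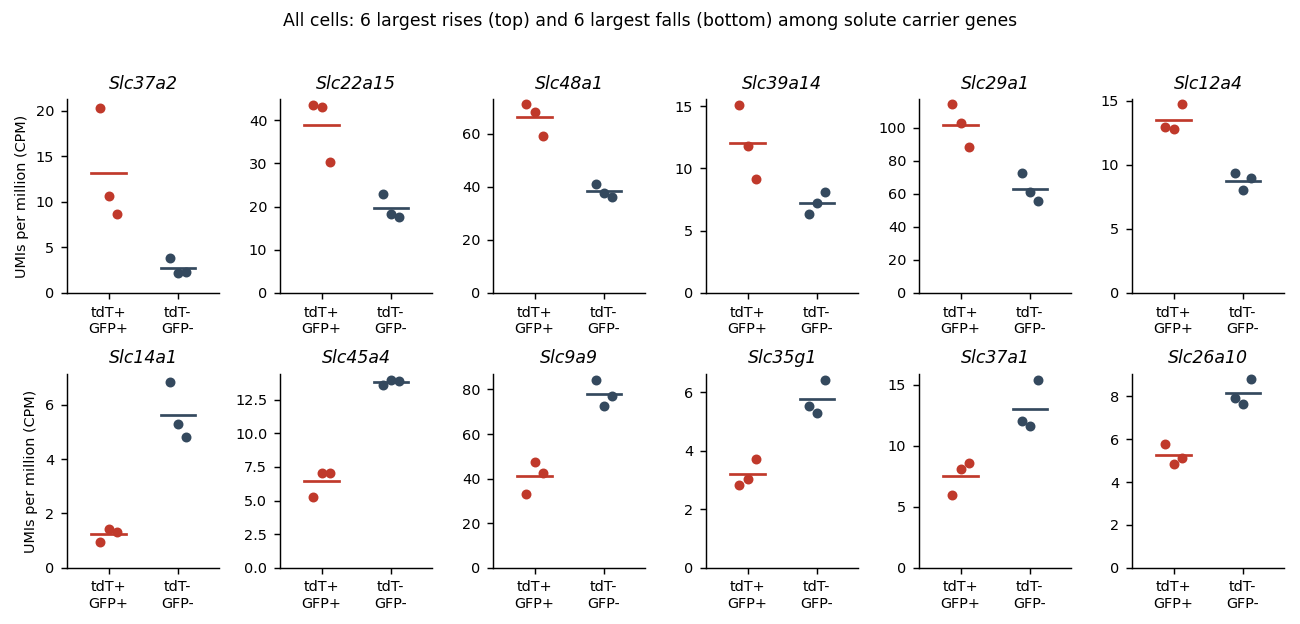
CPM (vertical axes, from 0) of the 6 members with the largest rises and the 6 with the largest falls over all cells, with 1 point a replicate, a line at the mean of 3 and tdTomato+GFP+ (tdT+ GFP+) left of tdTomato-GFP- (tdT- GFP-). In each panel the 3 points of one gate lie apart from those of the other.

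By role, mitochondrial carriers had 7 members higher and 3 lower of 34, with a median log2 fold change of 0.10. Each count by role over all cells stands beside 13% of all genes higher and 13.4% lower. No role was tested as a set. Slc25a24, an ATP-Mg/phosphate carrier controlled by calcium, had 62.5, 61.1 and 60.0 CPM in tdTomato+GFP+ cells, against 41.7, 41.8 and 36.7 CPM in tdTomato-GFP- cells (log2 fold change of 0.59 with an SE of 0.06, adjusted p = 0.000313). Its relative Slc25a25 went the other way, with 16.3, 17.91 and 17.96 CPM against 23.5, 21.3 and 25.9 CPM (log2 fold change -0.44, adjusted p = 0.00991). Slc25a17 of peroxisomes, Slc25a51, which brings NAD+ into mitochondria, and Slc25a4, an ADP/ATP exchanger, rose by log2 0.52, 0.43 and 0.34, and Slc25a28, an iron carrier known as mitoferrin 2, fell by 0.52 on the log2 scale. These calls held without any single replicate. The most abundant mitochondrial carriers did not pass: Slc25a3 had 453 to 462 CPM in tdTomato+GFP+ replicates, against 462 to 486 CPM in tdTomato-GFP- replicates (log2 fold change -0.06, adjusted p = 0.391), and Slc25a5 had 418 to 443 CPM and 412 to 438 CPM (log2 fold change 0.00, adjusted p = 0.977).

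Among amino acid and peptide carriers 1 of 20 was higher and 1 lower, beside 13% and 13.4% of all genes. Slc1a5 had 247, 228 and 208 CPM in tdTomato+GFP+ cells, against 188, 178 and 170 CPM in tdTomato-GFP- cells (log2 fold change of 0.34 with an SE of 0.07, adjusted p = 0.00871). Slc7a5, the light chain that pairs with Slc3a2 to import large neutral amino acids, had 12.4, 11.3 and 11.5 CPM against 16.7, 15.6 and 13.1 CPM (log2 fold change of -0.40 with an SE of 0.11, adjusted p = 0.0255), a call that was lost without 4 of the 6 replicates, with adjusted p up to 0.101. Slc3a2 itself had 182, 169 and 163 CPM in tdTomato+GFP+ cells, against 203, 196 and 172 CPM in tdTomato-GFP- cells (log2 fold change -0.16, adjusted p = 0.129). It passed once replicate number was a block (adjusted p = 0.0157). The glutamine carriers Slc38a1 and Slc38a2 gave log2 fold changes of -0.09 and -0.04 (adjusted p = 0.348 and 0.730), and the cationic amino acid carrier Slc7a1 gave -0.05 (adjusted p = 0.859).

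Ion exchangers and cotransporters had 2 members higher and 5 lower of 21, beside 13% and 13.4% of all genes. Slc20a1, a sodium/phosphate cotransporter, had 21.95, 22.9 and 26.3 CPM in tdTomato+GFP+ cells, against 34.6, 33.4 and 32.0 CPM in tdTomato-GFP- cells (log2 fold change of -0.51 with an SE of 0.08, adjusted p = 0.00232). Slc4a7, a sodium/bicarbonate cotransporter, and Slc12a7, a potassium/chloride cotransporter, fell by 0.46 and 0.44 on the log2 scale. Slc12a4, another potassium/chloride cotransporter, had 12.9, 12.8 and 14.7 CPM against 9.32, 8.01 and 8.96 CPM (log2 fold change 0.61, adjusted p = 0.00426). Among metal carriers 2 of 21 were higher and 1 lower. The zinc importer Slc39a13 rose by log2 0.59 (adjusted p = 0.00269), and the zinc importer Slc39a6 fell by 0.45 (adjusted p = 0.00357). Slc39a14, which imports zinc, iron and manganese, had 15.1, 11.8 and 9.13 CPM in tdTomato+GFP+ cells, against 6.31, 7.20 and 8.08 CPM in tdTomato-GFP- cells (log2 fold change 0.73, adjusted p = 0.0224), a call lost without 4 of the 6 replicates with adjusted p up to 0.0831. The iron carrier Slc11a2, the zinc exporter Slc30a1 and the zinc importer Slc39a8 did not pass (adjusted p = 0.344, 0.185 and 0.201).

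Carriers of nucleosides, vitamins and organic ions had 4 members higher and 3 lower of 13, beside 13% and 13.4% of all genes. Slc29a1 rose, as given above, and the equilibrative carrier Slc29a3 did not pass (log2 fold change -0.16, adjusted p = 0.461). Slc28a2, which takes up nucleosides together with sodium, had 32.9, 35.2 and 29.4 CPM in tdTomato+GFP+ cells, against 47.9, 50.3 and 39.5 CPM in tdTomato-GFP- cells (log2 fold change of -0.51 with an SE of 0.10, adjusted p = 0.00778). Slc28a2b, no member since the table lists it under the older symbol Gm14085, had 0.269, 0.397 and 0.903 CPM against 4.47, 3.67 and 4.29 CPM. How reads that match both genes were counted is not given in the sources used here, so the fall of Slc28a2 is uncertain to that extent. Of the 20 Slc35 members 2 were higher and 3 lower, among them Slc35g1 with 2.83, 3.03 and 3.71 CPM against 5.54, 5.29 and 6.43 CPM (log2 fold change -0.85, adjusted p = 0.00962). Slc35e1, Slc35e2, Slc35e4 and Slc35b1 had log2 fold changes of -0.47, -0.50, 0.55 and 0.20, calls that each failed without tdTomato+GFP+ replicate 2 (adjusted p = 0.0629, 0.0535, 0.136 and 0.0669). Sugar and monocarboxylate carriers had 3 higher and 2 lower of 15, and lipid and choline carriers 0 higher and 1 lower of 6, the choline transporter-like Slc44a2 (log2 fold change -0.40, adjusted p = 0.0120).

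Both gates were next compared with the same number of cells of each cluster drawn from both gates in each replicate, 3993 cells a gate. Here 1 of 155 members was higher and 2 were lower, against 0.919% and 1.88% of all genes tested. Slc48a1 had 61.4, 56.1 and 54.1 CPM in tdTomato+GFP+ cells, against 46.5, 38.4 and 38.6 CPM in tdTomato-GFP- cells (log2 fold change of 0.46 with an SE of 0.09, adjusted p = 0.0346). Slc20a1 had 23.3, 25.3 and 27.6 CPM against 41.3, 37.5 and 32.9 CPM (log2 fold change of -0.56 with an SE of 0.11, adjusted p = 0.0336), and Slc28a2 had 32.8, 32.3 and 27.2 CPM against 50.2, 48.0 and 39.0 CPM (log2 fold change of -0.58 with an SE of 0.12, adjusted p = 0.0355). Each of the 3 calls failed without tdTomato+GFP+ replicate 2 (adjusted p = 0.139, 0.106 and 0.133 for Slc20a1, Slc28a2 and Slc48a1), and each failed without at least 3 others. With replicate number as a block 19 members passed, 8 higher and 11 lower, against 5.31% and 7.55% of all genes. The draw matched cluster make-up between same-numbered replicates, so the draw itself adds to the likeness that the block removes. The part of this in the added calls was not tested. The added calls included Slc15a3 (log2 fold change -1.12, adjusted p = 1.17e-05), Slc29a1 (0.55, adjusted p = 7.59e-05), Slc25a17 (0.46, adjusted p = 0.00055), Slc37a2 (1.63, adjusted p = 0.00536) and Slc14a1 (-1.36, adjusted p = 0.0110). Slc25a24 and Slc1a5, which rose over all cells, had log2 fold changes of 0.11 and 0.09 here and did not pass with or without the block.

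**Figure D2:**
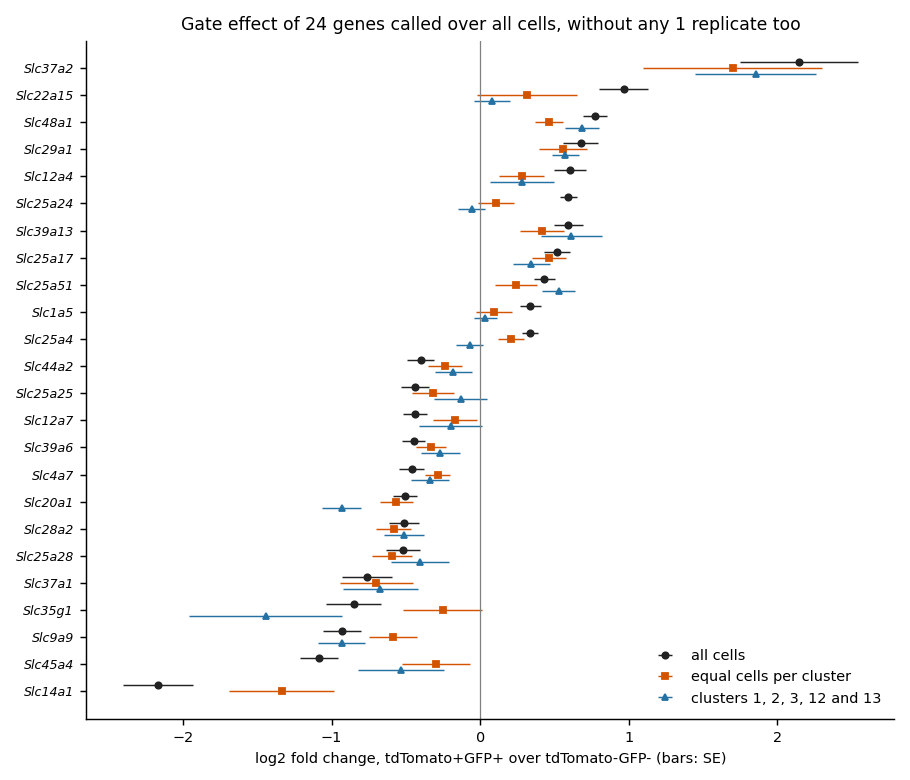
Log2 fold change of tdTomato+GFP+ over tdTomato-GFP- cells (horizontal axis, bars are SE) for the 24 members whose call over all cells held without any single replicate, in all cells, with equal cells per cluster and in the Th17-like clusters. Slc48a1 lies right of 0 and Slc20a1 and Slc28a2 left of 0 in all 3 fits, and Slc14a1 has no Th17-like value because it was not tested there.

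Within the Th17-like clusters, 149 members were tested, and 7 were higher and 6 lower in tdTomato+GFP+ cells, against 4.75% and 6.45% of all genes. The peptide carrier Slc15a3, which moves histidine and small peptides across the membrane of endosomes and lysosomes, had the smallest adjusted p of the members. It had 65.0, 63.8 and 61.8 CPM in tdTomato+GFP+ cells, against 150.8, 159.5 and 195.2 CPM in tdTomato-GFP- cells (log2 fold change of -1.42 with an SE of 0.09, adjusted p = 1.42e-07), and the adjusted p stayed at or below 1.8e-05 without any single replicate. Over all cells the same gene did not pass and the gates overlapped, with 49.97, 48.6 and 42.4 CPM against 43.5, 42.2 and 49.6 CPM (log2 fold change of 0.05 with an SE of 0.09, adjusted p = 0.710). Slc15a3 stood higher in the Th17-like clusters than elsewhere. By level over the median of other clusters it is among the 10 leading genes of clusters 1, 2 and 3. Slc15a3 may therefore have helped to define those clusters, which was not tested. It lies on chromosome 19, 10839727 to 10859362, plus strand (GRCm38).

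The gap in Slc15a3 appeared in each large Th17-like cluster. Cluster 1 had 68.8, 61.9 and 66.0 CPM in tdTomato+GFP+ cells, against 183.3, 204.0 and 281.6 CPM in tdTomato-GFP- cells. Cluster 2 had 51.1, 55.0 and 50.7 CPM against 146.8, 129.9 and 155.5 CPM, and cluster 3 had 61.0, 78.2 and 71.2 CPM against 133.3, 168.4 and 173.9 CPM. Over the 11 clusters with at least 20 cells in every replicate, the tdTomato+GFP+ mean was the lower one in all 11, and the replicates did not overlap in 7 of them. The clusters come from the same 6 replicates and lanes, so they are not independent repeats. Such agreement was not counted over all genes. The same limits hold for the cluster counts of Slc20a1, Slc48a1 and Slc29a1 below. Non-overlapping falls also occurred outside the Th17-like clusters, with means of 32.5 CPM in tdTomato+GFP+ and 74.98 CPM in tdTomato-GFP- cells of cluster 6, and 17.7 CPM and 47.2 CPM in the same gates of cluster 5. In cluster 0 the gates overlapped, with 12.1 ± 4.45 CPM in tdTomato+GFP+ cells, against 15.1 ± 2.41 CPM in tdTomato-GFP- cells (SD, n = 3 each). Tested directly, the gate effect in the Th17-like clusters minus that in cluster 0 was -1.01 on the log2 scale (SE 0.26, adjusted p = 0.0404). Slc15a3 was the only member to pass, 0 of 151 members being higher and 1 lower against 0.933% and 1.45% of all genes. An unadjusted p below 0.05 was reached by 15 of 151 members and by 1265 of all 9971 genes tested. Without the replicate block Slc15a3 did not pass (adjusted p = 0.0715), and it failed without any of 5 of the 6 replicates (adjusted p up to 0.343). The same difference to cluster 5 was -0.02 (SE 0.49, adjusted p = 1), an error too wide to tell equal from unequal effects. Within the Th17-like clusters the summed level of 6 Th1 markers was 431.5, 588 and 729.5 CPM in tdTomato+GFP+ cells, against 1510, 1708 and 1562 CPM in tdTomato-GFP- cells, and that of 8 Th17 markers was 23480, 21330 and 21800 CPM against 15540, 15980 and 17150 CPM. The part of these differences in the gap was not tested.

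Slc20a1, on chromosome 2, 129198764 to 129211616, plus strand, was lower in several cell groups. In the Th17-like clusters it had 21.7, 22.4 and 27.0 CPM in tdTomato+GFP+ cells, against 46.0, 39.7 and 44.6 CPM in tdTomato-GFP- cells (log2 fold change of -0.93 with an SE of 0.13, adjusted p = 0.000220). In cluster 0 it was the only member of 139 to pass, with 0 members higher and 1 lower against 0.805% and 1.74% of all genes. An unadjusted p below 0.05 was reached by 18 of 139 members and by 1210 of all 9064 genes tested. DESeq2 called 0 members there in either direction. In cluster 0 Slc20a1 had 24.2, 17.95 and 23.8 CPM against 44.9, 39.5 and 36.3 CPM (log2 fold change of -0.96 with an SE of 0.18, adjusted p = 0.00607). It failed without tdTomato+GFP+ replicate 2 (adjusted p = 0.132). In cluster 0 the summed Th1 markers were at 452.2, 435 and 571.3 CPM in tdTomato+GFP+ cells, against 1022, 921.2 and 1192 CPM in tdTomato-GFP- cells, and the summed Th17 markers at 1432, 942.3 and 608.3 CPM against 451.5, 325.4 and 301.7 CPM, with no marker at 0 and no overlap in either list. There tdTomato+GFP+ replicate 1 stood apart, with stromal markers at 510.2 CPM against 40.8 to 52.9 CPM in the other 5 replicates, and Th2 markers at 989 CPM against 2938 and 3784 CPM in the other replicates of its gate. Without this replicate Slc20a1 still passed (adjusted p = 0.00249), and the part of the markers in its fall was not tested. With the replicate block Slc28a2 also passed in cluster 0 (log2 fold change -0.66, adjusted p = 0.0438). The Slc20a1 replicates lay below in 6 of the 11 large clusters and overlapped in the others, the Tfh-like and cycling clusters 7 and 10 among them.

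Slc48a1, on chromosome 15, 97778520 to 97792692, plus strand, had 80.3, 77.5 and 67.2 CPM in tdTomato+GFP+ cells, against 47.2, 39.7 and 49.5 CPM in tdTomato-GFP- cells of the Th17-like clusters (log2 fold change 0.68, SE 0.11, adjusted p = 0.000869). Its tdTomato+GFP+ mean was higher in 10 of the 11 large clusters, cluster 5 excepted, and the replicates did not overlap in 5. Slc29a1 had 120, 110 and 102 CPM against 75.0, 68.2 and 73.3 CPM (log2 fold change of 0.57 with an SE of 0.09, adjusted p = 0.000691), and its tdTomato+GFP+ mean was the higher one in all 11 clusters, without overlap in 7. Slc9a9 had 29.0, 38.2 and 25.9 CPM in tdTomato+GFP+ cells, against 64.2, 50.8 and 60.4 CPM in tdTomato-GFP- cells of the Th17-like clusters (log2 fold change -0.93, SE 0.16, adjusted p = 0.00245). These 3 calls held without any single replicate.

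The other 8 calls in the Th17-like clusters were each lost without at least 1 replicate. Slc37a2 had 27.4, 14.4 and 13.5 CPM in tdTomato+GFP+ cells, against 4.46, 5.55 and 4.95 CPM in tdTomato-GFP- cells (log2 fold change of 1.85 with an SE of 0.41, adjusted p = 0.0173), and it failed without any of the tdTomato-GFP- replicates, with adjusted p up to 0.175. Slc5a3, which imports myo-inositol, had 16.5, 16.8 and 13.9 CPM against 8.17, 9.52 and 8.92 CPM (log2 fold change 0.82, adjusted p = 0.0165) and failed without tdTomato+GFP+ replicate 2 or tdTomato-GFP- replicate 1 (adjusted p = 0.0851 and 0.133). Slc25a51 (log2 fold change 0.53) failed without tdTomato-GFP- replicate 1 (adjusted p = 0.0902). Slc39a14, Slc50a1, Slc28a2, Slc35e1 and Slc38a1 had log2 fold changes of 0.91, 0.30, -0.51, -0.72 and -0.27. Each failed without tdTomato-GFP- replicate 1 (adjusted p = 0.223, 0.192, 0.210, 0.0933 and 0.185) and without at least 2 others.

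**Figure D3:**
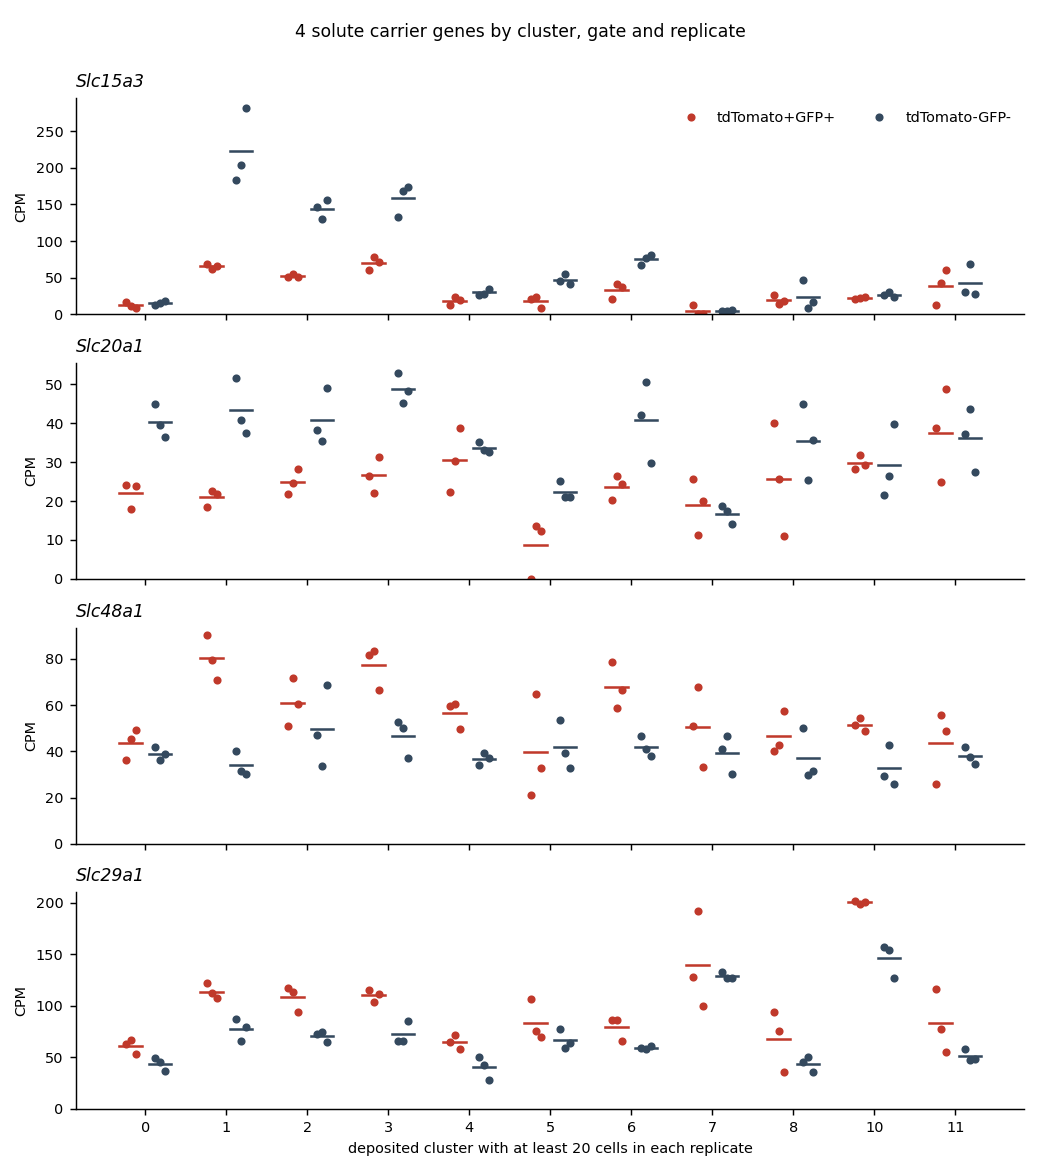
CPM (vertical axes, from 0) of Slc15a3, Slc20a1, Slc48a1 and Slc29a1 in the 11 clusters with at least 20 cells in every replicate, with 1 point a replicate, a line at the mean of 3 and tdTomato+GFP+ left of tdTomato-GFP- in each pair. The Slc15a3 points of clusters 1, 2 and 3 run from 50.7 to 78.2 CPM in tdTomato+GFP+ and from 129.9 to 281.6 CPM in tdTomato-GFP- cells.

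Cluster 5 held 24, 80 and 58 tdTomato+GFP+ cells against 783, 484 and 229 tdTomato-GFP- cells, so 69 members could be tested. Foxp3, the transcription factor of regulatory T cells, was at 222.6, 156.5 and 192.7 CPM in tdTomato+GFP+ cells, against 776, 835.6 and 907.1 CPM in tdTomato-GFP- cells there. Of the members 2 were higher and 0 lower, against 1.51% and 2.2% of all genes, and DESeq2 also called 2 higher and 0 lower. An unadjusted p below 0.05 was reached by 13 of 69 members and by 1073 of all 6491 genes tested. The 6 Th2 markers summed to 8446, 11120 and 15510 CPM in tdTomato+GFP+ cells of cluster 5, against 2792, 5005 and 6282 CPM in tdTomato-GFP- cells. The 8 Th17 markers summed to 2808, 1368 and 1271 CPM against 364.2, 279.3 and 410.5 CPM. No marker of either list was at 0, neither list overlapped between the gates, and their part in the gate differences of cluster 5 was not tested. Slc38a1 had 127, 146.3 and 123.0 CPM in tdTomato+GFP+ cells, against 92.4, 88.3 and 82.6 CPM in tdTomato-GFP- cells (log2 fold change of 0.67 with an SE of 0.17, adjusted p = 0.0374). Slc25a4 had 84.8, 81.7 and 61.5 CPM against 46.2, 36.4 and 39.5 CPM (log2 fold change of 0.92 with an SE of 0.24, adjusted p = 0.0414). Both failed without tdTomato+GFP+ replicate 2 (adjusted p = 0.339 and 0.334) and without several others. With the replicate block Slc38a1 did not pass (adjusted p = 0.0511), and Slc15a3 did, with a log2 fold change of -1.40 (adjusted p = 0.0383) from 2, 7 and 2 UMIs in tdTomato+GFP+ and 133, 99 and 36 UMIs in tdTomato-GFP- cells.

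The gate effect in the Th17-like clusters minus that in cluster 5 passed for 5 of 143 members, 1 higher and 4 lower, against 2.16% and 2.02% of all genes. For Slc38a1 the difference was -0.93 (SE 0.21, adjusted p = 0.00430), and in the Th17-like clusters it had 95.4, 95.3 and 87.7 CPM in tdTomato+GFP+ cells, against 112, 106 and 109 CPM in tdTomato-GFP- cells. For Slc9a9 it was -1.56 (SE 0.32, adjusted p = 0.00173). In cluster 5 Slc9a9 had 21.2, 74.9 and 73.8 CPM (2, 22 and 18 UMIs) in tdTomato+GFP+ cells, against 41.8, 43.6 and 47.7 CPM in tdTomato-GFP- cells. The gene alone did not pass there (adjusted p = 0.247). The Slc38a1 difference failed without tdTomato+GFP+ replicate 2 (adjusted p = 0.0953) and the Slc9a9 difference without tdTomato+GFP+ replicate 3 (adjusted p = 0.0934). The same difference for Slc20a1 was 0.09 (SE 0.56, adjusted p = 0.983), again with a wide error.

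The tdTomato+GFP+ cells were also set against the tdTomato-GFP- cells that had a Foxp3 UMI, 1126, 719 and 349 cells. No Foxp3 UMI was required of the tdTomato+GFP+ cells. This comparison shares its tdTomato+GFP+ samples with that of all cells. It also carries a difference in make-up: 64.6% of the tdTomato+GFP+ cells were Th17-like and 1.85% in cluster 5, against 3.6% and 53.6% of the tdTomato-GFP- cells with a Foxp3 UMI, and the part of this in the calls was not tested. Here 13 of 155 members were higher and 20 lower, against 9.63% and 12.3% of all genes. Of the 33 calls, 18 held without any single replicate. Requiring a Foxp3 UMI in both gates left 2946 of the 8765 tdTomato+GFP+ cells. That alternative called 27 members and 20.1% of all genes, against 33 members and 21.9% in the main run. A vitamin carrier was among the falls of the main run. Slc52a3, which imports riboflavin, had 12.5, 12.01 and 11.8 CPM in tdTomato+GFP+ cells, against 26.5, 32.8 and 30.5 CPM in tdTomato-GFP- cells with a Foxp3 UMI (log2 fold change -1.28, SE 0.13, adjusted p = 0.000108). By cluster mean Slc52a3 was highest in cluster 5, at 26.1 CPM against a median of 12.05 CPM elsewhere, and within cluster 5 it had 21.2, 0 and 20.5 CPM in tdTomato+GFP+ cells, against 36.0, 43.1 and 36.1 CPM in tdTomato-GFP- cells and did not pass (log2 fold change -1.70, SE 0.54, adjusted p = 0.105). Slc14a1 had 7.196, 7.98 and 8.12 CPM in the tdTomato-GFP- cells with a Foxp3 UMI (log2 fold change -2.56, SE 0.28, adjusted p = 0.000183), and Slc45a4 had 13.8, 20.9 and 20.3 CPM (log2 fold change of -1.44 with an SE of 0.21, adjusted p = 0.00114).

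Metal carriers had 2 higher and 4 lower of 21 in this comparison, beside 9.63% and 12.3% of all genes. The zinc importers Slc39a4 and Slc39a6 and the magnesium carrier Slc41a1 fell by 0.76, 0.45 and 0.57 on the log2 scale. The zinc exporter Slc30a1 fell by 0.87, with 4.71, 3.92 and 3.01 CPM in tdTomato+GFP+ cells, against 8.14, 6.44 and 6.09 CPM in tdTomato-GFP- cells (adjusted p = 0.0320, up to 0.145 without 1 replicate). The importers Slc39a8 and Slc39a14 were higher, Slc39a8 with 7.54, 9.68 and 8.23 CPM against 4.92, 4.29 and 4.06 CPM (log2 fold change of 0.93 with an SE of 0.21, adjusted p = 0.0111) and Slc39a14 with a log2 fold change of 0.95 (adjusted p = 0.0170). Slc39a8 and Slc39a14 failed without tdTomato+GFP+ replicate 2 (adjusted p = 0.0737 and 0.0559), Slc39a14 also without tdTomato-GFP- replicate 1 (0.0733), and Slc39a6 without 5 of the 6 replicates (up to 0.183). Slc39a4 too had its highest cluster mean in cluster 5, at 29.7 CPM. Slc26a11, an anion carrier, had 18.05, 15.9 and 20.4 CPM in tdTomato+GFP+ cells, against 10.6, 9.82 and 7.45 CPM in tdTomato-GFP- cells (log2 fold change of 0.90 with an SE of 0.16, adjusted p = 0.00318). Slc35c1, which brings GDP-fucose into the Golgi, fell by 0.80 on the log2 scale (adjusted p = 0.0104), and the calls of Slc26a11, Slc35c1, Slc39a4 and Slc41a1 held without any single replicate. Slc48a1 and Slc25a24 were again higher (log2 fold changes 0.72 and 0.69), while Slc20a1 did not pass (0.10, adjusted p = 0.708), its level being 24.2, 23.0 and 17.6 CPM in the tdTomato-GFP- cells with a Foxp3 UMI, and its lowest cluster mean being that of cluster 5, at 15.5 CPM. With the replicate block the amino acid carrier Slc7a8 also passed (log2 fold change 1.65, adjusted p = 0.00354), as did Slc37a2 (1.30, adjusted p = 0.000395).

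In the 11 clusters with at least 20 cells in every replicate, the highest cluster mean of a member was 1.48 times the median of the other clusters at the median over members, and 8 members passed 3-fold. This ratio was not computed over all genes, so it is a description only. The cluster levels rest on cells grouped by their expression and are given without a test. Slc7a8, a neutral amino acid light chain, was highest in cluster 0, at 24.6 CPM against a median of 3.19 CPM elsewhere, but its 6 replicates there ran from 9.67 to 48.4 CPM. In cluster 5 it had 10.6, 37.4 and 41.0 CPM (1, 11 and 10 UMIs) in tdTomato+GFP+ cells, against 2.72, 6.62 and 8.14 CPM (8, 12 and 7 UMIs) in tdTomato-GFP- cells. It did not reach the count minimum there. In the joint fit its gate effect in the Th17-like clusters minus that in cluster 5 was -2.69 (SE 1.03, adjusted p = 0.161). Slc43a3, a carrier of purine bases, was highest in the cycling cluster 10 at 43.1 CPM against 8.83 CPM elsewhere, and so was Slc29a1 at 173.1 CPM against 72.1 CPM. The mitochondrial carriers Slc25a13 and Slc25a10 and the light chain Slc7a5 also peaked in cycling cells, at 3.15, 2.65 and 2.20 times the median of the other clusters.

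The Tfh-like cluster 7 held the highest mean of 39 of the 155 members, more than any other cluster. It had only 101 tdTomato+GFP+ cells and 20 cells in its smallest replicate. How many of all genes were highest in cluster 7 was not counted, so the members' count is a description only. Slc9a9 reached 159.2 CPM there against 54.5 CPM elsewhere, and the replicates of the gates did not overlap within it, with 89.4, 141.0 and 146.4 CPM in tdTomato+GFP+ cells, against 206.1, 177.8 and 194.4 CPM in tdTomato-GFP- cells. Slc45a4 (32.4 CPM), the endosomal exchanger Slc9a7 (26.6 CPM), Slc5a3 (40.3 CPM) and Slc41a1 (52.4 CPM) were also highest in cluster 7, at 3.63, 3.24, 3.01 and 2.53 times the median of the others. Over the 6 replicates of cluster 7 Slc45a4 ran from 0 to 52.3 CPM. The Th17-like cluster 3 had the highest mean of 25 members, 11 of them mitochondrial carriers, again without a count over all genes. By pooled sums over all cells, cluster 7 led for 37 members and cluster 3 for 21, and 97 of 155 members had the same leading cluster both ways. Cluster 14, with a median of 1090 UMIs a cell, had a summed member level of 8021 CPM against 3899 to 5131 CPM in the other 15 clusters. It had under 20 cells in its smallest replicate and was not compared by replicate.

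**Figure D4:**
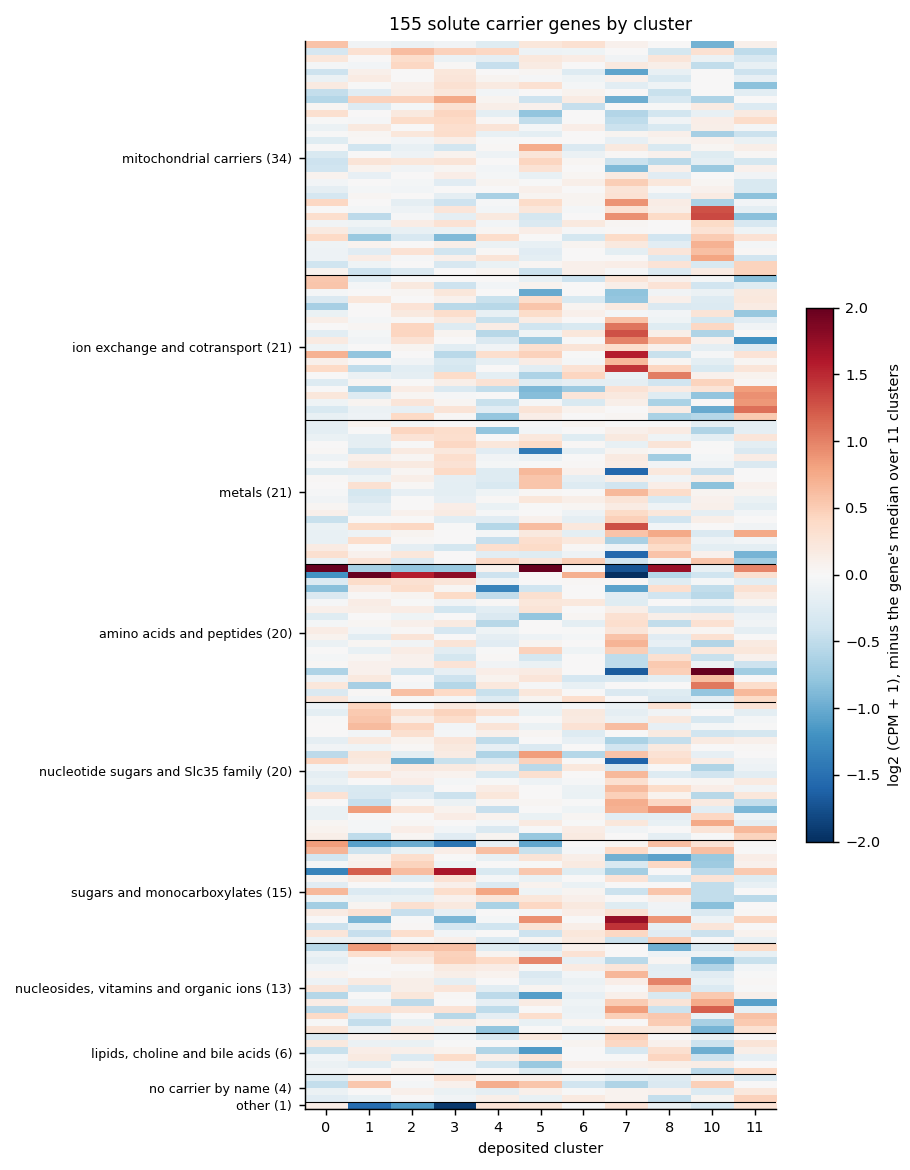
Log2 (CPM + 1) of the 155 members (rows, grouped by role with the number of members in brackets) in the 11 clusters with at least 20 cells in every replicate, minus the member's median over the clusters. Red is above and blue below the median, with colours cut at 2. Most rows are pale, and among the strongest red cells are Slc7a8 in clusters 0, 5 and 8, Slc15a3 in clusters 1 to 3, Slc43a3 in cluster 10 and Slc45a4 in cluster 7.

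Other genes of transport and nutrient sensing were counted from lists, and each count over all cells stands beside 13% of all genes higher and 13.4% lower. Of the 4 carriers left out of the members, Slc2a1, a glucose carrier, was lower over all cells, with 25.3, 29.6 and 28.8 CPM in tdTomato+GFP+ cells, against 37.2, 37.5 and 32.7 CPM in tdTomato-GFP- cells (log2 fold change -0.37, adjusted p = 0.0119), and the others did not pass. Among 25 tested ion and water channels 8 were higher and 4 lower, Aqp3, a water and glycerol channel, with 150, 129 and 112 CPM against 50.1, 44.5 and 43.7 CPM (log2 fold change 1.49, adjusted p = 0.000156). The calcium channel subunit Orai1 fell by 0.59 on the log2 scale (adjusted p = 0.00111). Of 12 ion pumps 2 were higher and 2 lower, of 23 ABC transporters 2 and 3, of 26 genes of the amino acid response and the inputs to mTORC1 5 and 4, of 10 genes of mitochondrial pyruvate and calcium import 4 and 0, of 6 carrier subunits and chaperones 3 and 1, of 10 metal handling genes 0 and 1, and of 3 organic anion carriers 0 and 0. The pump subunit Atp1b1 had 0.404, 0.695 and 1.505 CPM in tdTomato+GFP+ cells, against 11.4, 7.57 and 11.9 CPM in tdTomato-GFP- cells (log2 fold change -3.56, adjusted p = 0.000381). With equal cells per cluster 1 gene of the amino acid response list was higher and 1 channel lower, and no gene of the other lists passed, beside 0.919% and 1.88% of all genes.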

How the data were processed

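Single-cell RNA of both gates was counted on the 10x platform. The deposited counts are whole UMI numbers per cell and gene, and the deposited cell table gives gate, hashed replicate, cluster and a hashtag fraction, which was at least 80% among assigned cells. Cell Ranger, Scanpy 1.7.2, mm10 and GRCm38 are named in the submitters' processing notes. The labels' protocols leave the choice between 3′ v3 and 5′ v2 chemistry undecided. Hashtags (43.8% of UMIs) and 4721 cells without a replicate were left out. No doublet caller was run, and 174 barcodes occur in both lanes. The receptor table was not used.

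UMIs of 18874 cells were summed per gate and replicate and tested with edgeR 4.0.16 (R 4.3.3; TMM, filterByExpr with a minimum count of 10, robust glmQLFit, glmQLFTest, two-sided), with Benjamini-Hochberg adjustment over all genes and a threshold of 0.05. SE is the size of the log2 fold change over the root of F. DESeq2 1.42.0 and glmTreat with a 1.5-fold minimum were alternatives. The Foxp3 comparison leaves out Foxp3. Differences of gate effects come from an interaction term with each replicate as a block. A marker counts as raised at 20 CPM and 1.5 times the median of other clusters, 20 CPM added to both. The code was tested on simulated data.

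Same-numbered replicates deviated together (correlations of 0.264, 0.148 and 0.275 over 11933 genes), and unlike-numbered ones gave -0.287 to 0.0629. The deviations are from the mean of a gate's 3 replicates, so these values are not independent. Numbers may pair samples, a reading from the data since the labels do not say what they share. Main tests therefore leave the pairing out, and the replicate block is an alternative. P-values measure the spread between hashed replicates, and their number limits the precision. Named members follow a rule: the called members with separated replicates and the largest changes in each comparison, the most abundant, those next to the detection threshold, the leading member of each cluster, and 13 carriers and the called Slc35 members by name. Slc12a7, Slc25a10, Slc25a13, Slc25a25, Slc29a3, Slc39a4, Slc39a6, Slc41a1, Slc44a2 and Slc9a7 fall outside the rule and were named after their values were seen. Members and lists were chosen with earlier results of these data known. Coordinates are from the GENCODE annotation of GRCm38, which holds 154 of the 155 symbols. The values of 1 member are not reported here.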

Additional observations from a re-analysis of the deposited data

Results flagged for a closer look

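The gate effect differed between cell groups for 6 members in a test of the difference itself, each given as log2 effect in the Th17-like clusters minus that in the other group. Against cluster 5 the differences were -0.9265 for Slc38a1, -1.563 for Slc9a9, -0.9851 for Slc25a4, -3.611 for Slc35g1 and 8.307 for Slc12a9. Against cluster 0 it was -1.006 for Slc15a3. Slc25a4 had 69.8, 65.2 and 63.8 CPM in tdTomato+GFP+ cells, against 69.1, 65.0 and 68.4 CPM in tdTomato-GFP- cells of the Th17-like clusters, and its difference failed without tdTomato+GFP+ replicate 2 or 3 or tdTomato-GFP- replicate 2 (adjusted p up to 0.288). Slc35g1 rests on 1, 4 and 3 UMIs in tdTomato+GFP+ and 11, 2 and 3 UMIs in tdTomato-GFP- cells of cluster 5, and failed without 4 of the 6 replicates (adjusted p up to 0.247). Slc12a9, a relative of cation/chloride cotransporters, had 0 UMIs in each tdTomato+GFP+ replicate of cluster 5 and 26, 18 and 7 UMIs in the tdTomato-GFP- replicates, so its fitted difference is no bound. Its pooled tdTomato-GFP- level in cluster 5 was 9.08 CPM, 1.91 times that of 3 UMIs over the pooled tdTomato+GFP+ cells. That ratio leaves out the spread between replicates and is no bound either. The Slc12a9 difference failed without 5 of the 6 replicates (adjusted p up to 0.201). Cluster 5 has few tdTomato+GFP+ cells, and the part of cell number in these differences was not tested.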

How the results depend on the processing

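The share of all genes called under the same setting stands in brackets after each count of calls. With 1 replicate left out at a time, members called ranged from 25 to 38 over all cells (16.8% to 24.1%). They ranged from 0 to 4 with equal cells per cluster (0.414% to 2.53%) and 5 to 10 in the Th17-like clusters (5.79% to 10.8%). The ranges were 0 to 2 in cluster 0 (1.02% to 4.37%), 0 to 3 in cluster 5 (1.26% to 6.01%) and 20 to 30 in the Foxp3 comparison (12.8% to 20.6%). For the difference to cluster 5 the range was 1 to 5 (1.98% to 5.89%), and for that to cluster 0 it was 0 to 1 (1.08% to 3.53%). With the 1.5-fold minimum the counts were 2 over all cells (3.97%), 0 with equal cells (0.075%), 1 in the Th17-like clusters (1.52%), 0 in cluster 0 (0.276%), 0 in cluster 5 (0.924%) and 4 in the Foxp3 comparison (4.34%). DESeq2 called 6 members with equal cells (3.59%), 7 in the Th17-like clusters (8.39%) and 0 in cluster 0 (1.94%). With replicate number as a block, 50 passed over all cells (34.6%), 19 with equal cells (12.9%), 17 in the Th17-like clusters (17.1%), 2 in cluster 0 (4%) and 43 in the Foxp3 comparison (28%), and of the calls made without it in the 6 comparisons by gate only Slc38a1 in cluster 5 was lost. Conversely, the difference to cluster 0 gave 0 calls without the block (1.28%). Without a filter on low counts, 3 passed in cluster 0 (3.83%), 6 in cluster 5 (3.48%) and 2 for the difference to cluster 0 (2.55%). Scaling by total UMIs gave 2 in cluster 0 (2.71%) and 1 in cluster 5 (4.02%), and leaving out the 5% of cells with the most UMIs gave 1 in cluster 5 (3.42%). The cause of these shifts was not tested. In cluster 5 the median of all genes moved to -0.21 (log2) without the filter. No call of a named member changed direction under any alternative run. Depth limits cluster 5 most, where 86 of 155 members were not tested.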
